A study of Mus musculus with 14 samples.

Results

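H3K4me3 at the starts of 10 genes that relay Toll-like receptor signals was examined in LSK cells from HFD and LFD mice. The 10 genes were chosen by name for their role, as the coreceptors Cd14 and Ly96, the adapters Myd88, Tirap, Ticam1, and Ticam2, the kinases Irak4, Irak1, and Irak2, and the ubiquitin ligase Traf6. All 10 could be placed, among 21440 protein-coding genes with a known start. LSK cells (Lin−Sca1+cKit+) are the BM fraction that holds HSPCs, and they were sorted from C57BL/6J mice on HFD, which causes obesity, or on LFD as the control diet. H3K4me3 was mapped by CUT&Tag, in which an antibody guides a transposase to the modified histone so that the DNA around it is sequenced. The titles of the samples name CUT&RUN, whereas their protocol describes CUT&Tag. The comparison asks whether the diet altered H3K4me3 at these genes in HSPCs. Each of the 7 H3K4me3 libraries, 3 from HFD-LSK and 4 from LFD-LSK, has its own peak list. Age and batch are not given in the labels, which also do not say that the libraries came from separate animals, so each p-value measures the spread between these samples, which may be technical. The study added a cohort for the diet comparison in LSK cells and adjusted for batch and pairing, so the 7 libraries may span more than 1 cohort, which could not be entered in the tests here.

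Toll-like receptors sense microbial products such as LPS. CD14 captures LPS at the cell surface and hands it to TLR4 together with the protein encoded by Ly96, which sits on the outer face of the receptor. Inside the cell, TIRAP and MYD88 relay the signal at the plasma membrane and recruit the IRAK kinases, which pass it to TRAF6, whereas the products of Ticam2 and Ticam1 relay it from endosomes. H3K4me3 is a mark of nucleosomes at the starts of active and poised genes, strongest over promoters rich in CpG.

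A gene was counted as called in a list when a peak overlapped the 1 kb on either side of its start, and where several did, the peak with the highest fold enrichment was taken. Fold enrichment is the authors' ratio of a summit over the background that the peak caller set there. The study compared each target with its matched IgG control, so this background may come from the IgG libraries and differ with their depth. The fold was therefore ranked within each list, with rank 1 for the highest fold. The rank is also given as a percent of the list, with 0 at the top. List length was 9186, 13094, and 11977 peaks for the HFD-LSK replicates and 7447, 10572, 10352, and 6921 peaks for the LFD-LSK replicates, in the order of their numbers, which is kept below. Because the lists differ in length, a gene near the bottom has a larger rank in a longer list, and the percent is then the fairer scale. Of all protein-coding genes, 39.0%, 49.2%, and 43.0% were called in the HFD-LSK lists and 32.8%, 42.7%, 40.8%, and 28.5% in the LFD-LSK lists.
The lists give no depth. The number of fragments at each summit was recovered from its fold and p-value, as a whole number that fitted both, which succeeded for all peaks of the 7 lists. Mean coverage recovered in this way was 0.201, 0.268, and 0.116 fragments per position in HFD-LSK and 0.214, 0.172, 0.133, and 0.0891 in LFD-LSK. The lowest summit in a list was 79.7, 29.8, and 34.5 times the mean coverage in HFD-LSK and 98.3, 58.1, 60.0, and 101 times in LFD-LSK. A gene below that limit cannot be seen, so the lack of a peak does not show a lack of H3K4me3. Over a higher local background a taller summit is needed for a call, so a summit above the limit may also be missed.

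Members called per list numbered 7, 10, and 7 in HFD-LSK and 6, 10, 9, and 6 in LFD-LSK (8 ± 1.73 and 7.75 ± 2.06, SD, n = 3 and 4). The lists with all 10 members, HFD-LSK replicate 2 and LFD-LSK replicate 2, were also the longest of their diet. Myd88, Tirap, Ticam2, and Irak4 were called in all 7 lists, as were 20.2% of protein-coding genes. Cd14 and Traf6 were called in 6 lists, Irak1 in 5, Irak2 in 4, and Ly96 and Ticam1 in 3. Of all protein-coding genes, 12.3% were called in 6 lists, 5.68% in 5, 3.45% in 4, and 3.02% in 3. No member was missing from all lists, whereas 51.3% of protein-coding genes were called in at least 1.
The diets did not separate any member by its calls. The largest contrasts were Cd14, with 2 of 3 lists in HFD-LSK against 4 of 4 in LFD-LSK (Fisher's exact test, two-sided, p = 0.429), and Ly96, called in 2 of 3 and 1 of 4 (p = 0.486, same exact test), and the other 8 members each had an exact p of 1. In LFD-LSK replicates 3 and 4 the Cd14 peak overlapped the window, but its summit lay beyond 1 kb, at 1037 and 1164 bp. Adjusted over the 10997 genes with at least 1 call (Benjamini-Hochberg), the exact p was 1 for each member and also for each other gene, with 33 genes at an unadjusted p of 0.0286, the smallest that the design allows. Those 33, or 0.3% of the genes tested, were called in all 3 HFD-LSK lists and in no LFD-LSK list, and 0 genes, or 0.0%, showed the reverse. The shares were 0.251% and 0.230% with equal numbers of peaks from each list, and 0.247% and 0.0% with a common calling limit, an alternative added after seeing the data. With the lists as deposited, no member was in either class.

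**Figure D1:**
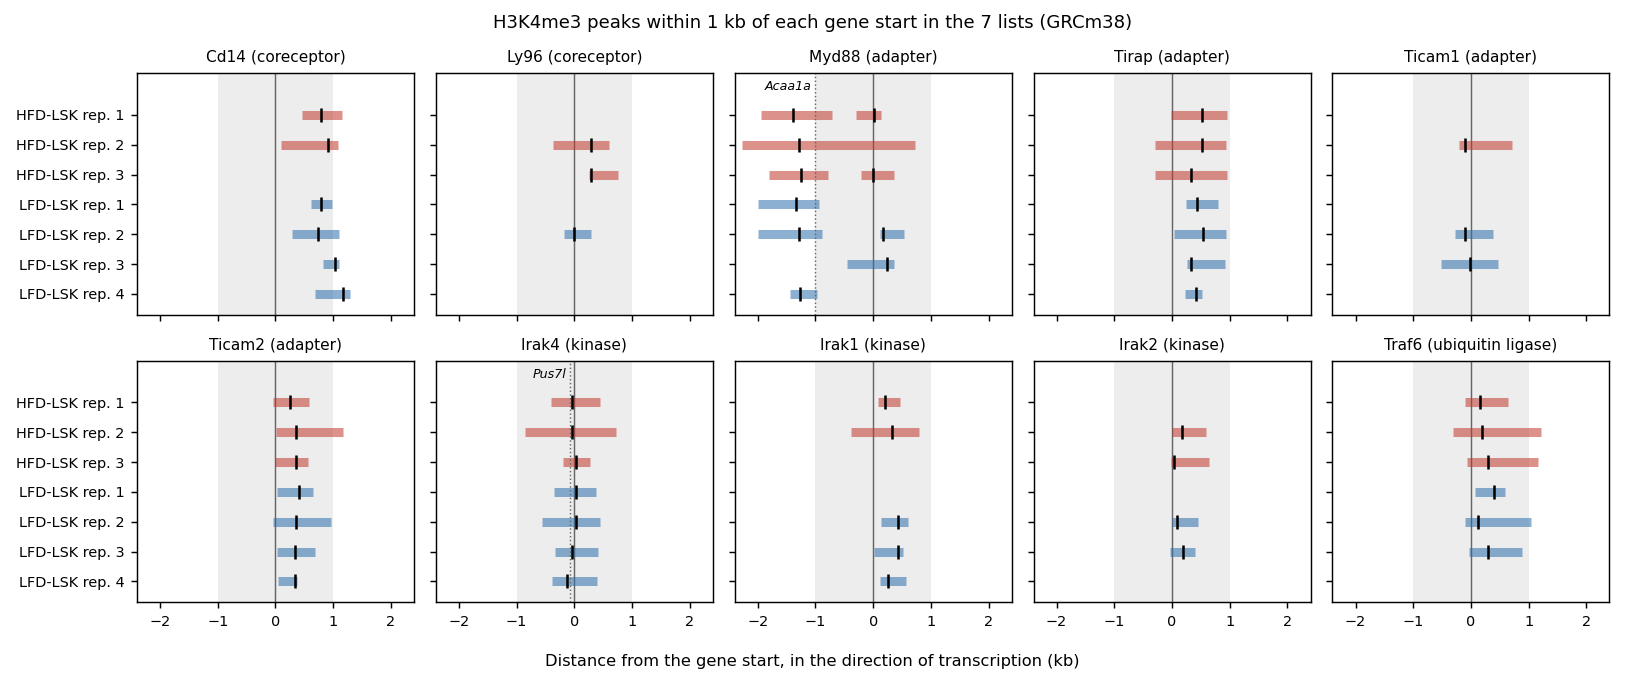
Peaks within 1 kb of the start of each of the 10 genes, drawn in GRCm38 against the distance from the gene start in kb in the direction of transcription, with 1 row for each list (red, HFD-LSK; blue, LFD-LSK). Bars are peaks, black ticks are summits, the gray band is the 1 kb window, and dotted lines are starts of neighboring protein-coding genes; the Cd14 peaks lie inside the gene in 6 lists, and 6 of the 10 peaks at Myd88 span the start of Acaa1a and have their summits beyond it.

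Cd14 encodes the LPS-binding coreceptor, and its start lies at position 36726815 of chromosome 18 (GRCm38), on the minus strand. Its peak had ranks of 8582 and 11920 in HFD-LSK replicates 1 and 2, with none called in replicate 3, and ranks of 7385, 8238, 10032, and 6449 in LFD-LSK. As a percent of the list, these ranks were 93.4% and 91.0% in HFD-LSK and 99.2%, 77.9%, 96.9%, and 93.2% in LFD-LSK, so the peak stood near the bottom wherever it was called, and the diets overlapped. The summits held 21 and 25 fragments in HFD-LSK and 24, 18, 10, and 12 in LFD-LSK. The smallest count, 10, has an exact 95% Poisson interval of 4.80 to 18.4, and the largest, 25, of 16.2 to 36.9, which cover counting error only. In multiples of mean coverage, the summits averaged 98.9 ± 8.02 and 107 ± 24.7 for HFD-LSK and LFD-LSK (SD, n = 2 and 4), a gap smaller than the spread within LFD-LSK. The list without a Cd14 peak had a calling limit of 34.5 times its coverage, below the lowest Cd14 summit of the other lists, at 75.0 times. That limit was a summit of 4 fragments, and the background at Cd14 in that list is not known. Of called protein-coding genes there, 14.0% had a background within 1.1 times the flat background of the library.
The Cd14 peak did not sit on the gene start. Its summit lay 788 and 904 bp downstream of the start in HFD-LSK and 788, 741, 1037, and 1164 bp downstream in LFD-LSK, inside the 1752-bp gene, and the peak reached the start in 0 of 6 lists. Among called protein-coding genes, the median summit lay 110 to 186 bp downstream of the start, and 64.8% to 84.7% of the peaks of a list reached it. Only 1.24% to 8.76% of called genes had a summit farther downstream than Cd14 in the same list. In the GRCm39 annotation, where positions differ, Cd14 has a transcript of 2 exons of 310 and 1331 bp, and the second runs from 401 to 1731 bp downstream of the gene start. It holds nearly the whole coding sequence, 1095 bp, and distances of the size measured for the summits fall within it. Peak width was 698 and 992 bp in HFD-LSK and 357, 810, 280, and 602 bp in LFD-LSK.

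Ly96, the coreceptor bound to the outer part of TLR4, starts at position 16688456 of chromosome 1 on the plus strand. Its peak ranked 9188 in HFD-LSK replicate 2, 9962.5 in HFD-LSK replicate 3, and 8925.5 in LFD-LSK replicate 2, or 70.2%, 83.2%, and 84.4% of the way down. The summits held 22, 10, and 16 fragments, or 82.0, 86.3, and 92.9 times the mean coverage. The 4 lists without the peak included LFD-LSK replicates 1 and 4, whose calling limits of 98.3 and 101 times the coverage lay above all of these summits. HFD-LSK replicate 1 (79.7 times) and LFD-LSK replicate 3 (60.0 times) had limits below them and still had no call. Width was 967 and 502 bp in HFD-LSK and 458 bp in LFD-LSK. The summits lay 285 and 293 bp downstream of the start in HFD-LSK and 9 bp upstream of it in LFD-LSK replicate 2 (−9 bp).

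Myd88, the adapter that most Toll-like receptors share, starts at position 119340018 of chromosome 9 on the minus strand. It counts as called in all 7 lists, but the start of Acaa1a, a gene for a peroxisomal thiolase named here after its values were seen, lies 1010 bp upstream and is transcribed away from it. Of 10 peaks that reached the Myd88 window, 6 had a summit nearer the Acaa1a start, 248 to 376 bp downstream of it, and 4 had a summit nearer the Myd88 start. These 4 were in HFD-LSK replicates 1 and 3 and LFD-LSK replicates 2 and 3, with summits 9, 0, 168, and 235 bp downstream of the Myd88 start. In LFD-LSK replicates 1 and 4 the only peak in the window was the one over Acaa1a, and in HFD-LSK replicate 2 a 2994-bp peak spanned both starts with its summit over Acaa1a.
The peaks differed in height. Those over Myd88 held 23, 16, 25, and 11 fragments, or 82.5 to 145 times the mean coverage (median 126), and those over Acaa1a reached 294 to 415 times (median 323). By fold rank, the Myd88 peaks stood at 89.9% and 14.4% in HFD-LSK replicates 1 and 3 and at 85.9% and 91.2% in LFD-LSK replicates 2 and 3. The peak in HFD-LSK replicate 3 therefore stood apart from the other 3, although its 16 fragments (exact 95% Poisson interval 9.15 to 26.0) overlap their counts.
Taken by highest fold, the Myd88 ranks were 1057.5, 352, and 1725 in HFD-LSK and 1348.5, 574, 9439, and 317 in LFD-LSK. The value of 9439 came from LFD-LSK replicate 3, where the Acaa1a peak did not reach the window. The mean ranks of 1045 ± 687 and 2920 ± 4368 (SD, n = 3 and 4) differed by −1875, HFD-LSK minus LFD-LSK, which was within the spread (two-sided exact permutation over the 35 assignments of the lists, p = 0.857; adjusted p = 0.970 over the 4332 genes called in all 7 lists). These ranks describe the peak over Acaa1a in HFD-LSK replicate 1 and LFD-LSK replicates 1, 2, and 4. In HFD-LSK replicate 2 the rank describes the peak that spanned both starts. They describe Myd88 itself only in HFD-LSK replicate 3 and LFD-LSK replicate 3.

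Tirap encodes the sorting adapter that brings MYD88 to the membrane, and its gene starts at position 35200291 of chromosome 9 on the minus strand. The ranks were 2493.5, 6812, and 1427.5 in HFD-LSK and 4266, 4057.5, 5099, and 4437 in LFD-LSK. The LFD-LSK lists stood close together, whereas the HFD-LSK lists lay on both sides of them. The mean ranks were 3578 ± 2851 and 4465 ± 450.3 (SD, n = 3 and 4), a difference of −887 (two-sided exact permutation p = 0.486, adjusted p = 0.937). As a percent of the list, the peak stood at 27.1%, 52.0%, and 11.9% in HFD-LSK and 57.3%, 38.4%, 49.3%, and 64.1% in LFD-LSK.
Tirap peaks were 966, 1226, and 1248 bp wide in HFD-LSK and 558, 899, 663, and 295 bp wide in LFD-LSK. Width in bp did not overlap between the diets, as was the case for 6.69% of the genes called in all 7 lists, wider in HFD-LSK, and 0.0%, narrower. The median width of all called protein-coding genes also ranged from 872.5 to 1347 bp in HFD-LSK and from 565 to 1044 bp in LFD-LSK. Within the lists, width ranks of 4121 ± 2081 and 5867 ± 541 (SD, n = 3 and 4) differed by −1746, which was not past the threshold (two-sided exact permutation p = 0.171, adjusted p = 0.799). As a percent of the list, a scale added for width after seeing the data, the width ranks were 41.7%, 48.4%, and 18.4% in HFD-LSK and 70.3%, 54.6%, 63.3%, and 85.5% in LFD-LSK, so the Tirap peak was wider in each HFD-LSK list. On that scale 3.19% of the genes called in all 7 lists were wider in this way and 1.96% were narrower. The difference of −32.3 did not pass the test (two-sided exact permutation p = 0.0571, adjusted p = 1, with 0 genes past an adjusted 0.05 and 86 at an unadjusted p under 0.05). The size of the difference in width rank depended on the lists and peaks kept. It was −1961.5 with equal numbers of peaks from all lists, with the smallest exact permutation p that the design allows, 0.0286 (adjusted p = 0.997), and −1120.5 with a −log10 q of at least 5 (exact permutation p = 0.343). Leaving out HFD-LSK replicate 2 or 3 gave −2852 and −787 (exact permutation p = 0.0667 and 0.467, all two-sided), and the adjusted p ran from 0.784 to 1 over the alternatives that kept all lists. The summits lay 324 to 541 bp downstream of the gene start in all 7 lists (439 ± 89.3 bp, SD, n = 7). RefSeq places transcript starts of Tirap 326 and 386 bp downstream of that position, and 2 of the 7 summits lay within 2 bp of the former.

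Ticam1 and Ticam2 encode the adapters of the endosomal branch, and Ticam2 ranked above Ticam1 in each of the 3 lists that had both. Ticam1 (chromosome 17, start at 56276767, minus strand) had a peak in 3 lists, ranked 11277.5 in HFD-LSK replicate 2 and 9992.5 and 8893.5 in LFD-LSK replicates 2 and 3. These peaks stood at 86.1%, 94.5%, and 85.9% of their lists, with 22, 13, and 12 fragments at summits 100, 99, and 13 bp upstream of the start (−100, −99, and −13 bp). Ticam1 thus stood as low as the coreceptors although it is a cytosolic adapter. Its summits reached 75.5 to 90.0 times the mean coverage. Of the 4 lists without a call, LFD-LSK replicates 1 and 4 had limits above all 3 summits, HFD-LSK replicate 1 had a limit among them (79.7 times), and HFD-LSK replicate 3 had a limit below them (34.5 times).
Ticam2 (chromosome 18, start at 46574533, minus strand) ranked 2636, 3651.5, and 2986.5 in HFD-LSK and 4075.5, 1345, 6607.5, and 1310.5 in LFD-LSK. The HFD-LSK lists fell within the wider range of LFD-LSK. Mean ranks of 3091 ± 516 and 3335 ± 2538 (SD, n = 3 and 4) differed by −243 (two-sided exact permutation p = 0.971, adjusted p = 0.995). Ranked by recovered fragments in place of fold, the sign turned, to 883 (two-sided exact permutation p = 0.429). The summits of Ticam2 lay 345 ± 43.5 bp downstream of the start (SD, n = 7), a smaller spread than for the other members called in all 7 lists. Its width ranks were 6585, 6799.5, and 7842 in HFD-LSK and 4639, 4893, 6450, and 5538.5 in LFD-LSK, so that each HFD-LSK list ranked it narrower. As a percent of the list, the width ranks overlapped, at 71.7%, 51.9%, and 65.5% in HFD-LSK and 62.3%, 46.3%, 62.3%, and 80% in LFD-LSK. Width ranks of this kind did not overlap for 5.38% of the genes called in all 7 lists, compared with 0.9% that were wider in HFD-LSK. The difference of 1695 had an exact permutation p of 0.0571 (two-sided, adjusted p = 0.799), and it was 624 with equal numbers of peaks (two-sided exact permutation p = 0.229, adjusted p = 0.997).

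Irak4, the kinase at the head of the IRAK cascade, starts at position 94543613 of chromosome 15 on the plus strand. Its start lies 79 bp from that of Pus7l, which is transcribed from the other strand, so the peak belongs to a shared promoter. The ranks were 409, 745.5, and 9423 in HFD-LSK and 254, 4427.5, 23.5, and 29 in LFD-LSK. The peak was thus among the strongest 5.69% of 5 lists, and stood far lower in HFD-LSK replicate 3 (78.7%) and LFD-LSK replicate 2 (41.9%). The mean ranks of 3526 ± 5110 and 1184 ± 2165 (SD, n = 3 and 4) differed by 2342 (two-sided exact permutation p = 0.457, adjusted p = 0.935).
The summits of those 2 lists were nearer to the others than their ranks were. Fragments numbered 77, 77, and 35 fragments in HFD-LSK and 95, 60, 49, and 44 in LFD-LSK. In multiples of mean coverage this was 383, 287, and 302 in HFD-LSK and 445, 349, 367, and 494 in LFD-LSK, so that HFD-LSK replicate 3 lay above replicate 2, and LFD-LSK replicate 2 was the lowest of its diet. The background against which the fold was taken was 5 in HFD-LSK replicate 3 and 1 in LFD-LSK replicate 2, or 47.3 and 18.6 times the flat background of those libraries, compared with 1.00 to 5.31 times in the other 5. Ranked by fragments, Irak4 stood in the top 10.7% of each list, at 5.86%, 10.7%, and 1.67% in HFD-LSK and 2.22%, 6.52%, 0.246%, and 0.845% in LFD-LSK. The difference was then 478 ranks (two-sided exact permutation p = 0.257). In HFD-LSK replicate 3, 14.0% of called protein-coding genes had a background within 1.1 times the flat one, whereas 48.8% to 72.7% did in the other lists. The summits of Irak4 lay within 119 bp of the start in all 7 lists (−22.4 ± 53.1 bp, SD, n = 7), and the peak covered the start in each. The width was 855, 1580, and 466 bp in HFD-LSK and 722, 1006, 756, and 777 bp in LFD-LSK, and the width ranks differed by 1950 (two-sided exact permutation p = 0.429, adjusted p = 0.903).

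Irak1, a kinase that IRAK4 phosphorylates, starts at position 74023921 of chromosome X on the minus strand. The microRNA genes Mir718 and Mir5132 start 15 bp upstream and 323 bp downstream of it, so their H3K4me3 cannot be told apart from that of Irak1. Ranks were 8582 (HFD-LSK replicate 1), 7399.5 (HFD-LSK replicate 2), 8138.5 (LFD-LSK replicate 2), 9271.5 (LFD-LSK replicate 3), and 6168.5 (LFD-LSK replicate 4). It stood at 93.4% and 56.5% in HFD-LSK and 77.0%, 89.6%, and 89.1% in LFD-LSK, low in the list except in HFD-LSK replicate 2. In HFD-LSK replicate 1 it tied with Cd14, and both had 21 fragments at the summit. The summits lay 325 ± 103 bp downstream of the start (SD, n = 5), and the peak reached the start in 1 list. HFD-LSK replicate 3 and LFD-LSK replicate 1 had no peak, with limits of 34.5 and 98.3 times the mean coverage, the former below and the latter within the range of the called summits, 82.5 to 146 times.
Irak2, a kinase that sustains late signaling, starts at position 113638467 of chromosome 6 on the plus strand. Replicates 2 and 3 of each diet had the peak, ranked 11685 and 5171.5 in HFD-LSK and 6170.5 and 5937 in LFD-LSK, or 89.2%, 43.2%, 58.4%, and 57.4% of the way down. The LFD-LSK ranks lay between those of HFD-LSK. HFD-LSK replicate 2 had the lowest rank with the most fragments (40, compared with 12, 24, and 17), over a background of 2, or 17.7 times the flat one. The calling limits of the 3 lists without a peak, 79.7, 98.3, and 101 times the mean coverage, lay below the lowest summit called, at 104 times. Widths were 597 and 658 bp in HFD-LSK and 468 and 448 bp in LFD-LSK.

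Traf6, the ubiquitin ligase on which the IRAK kinases converge, starts at position 101678420 of chromosome 2 on the plus strand. It ranked 3516, 6098.5, and 234 in HFD-LSK and 5708.5, 2868.5, and 6228 in LFD-LSK replicates 1, 2, and 3, with no peak in LFD-LSK replicate 4. Its best place, the top 1.95% of HFD-LSK replicate 3, rested on 21 fragments, compared with 45 and 52 in the other HFD-LSK lists. In multiples of mean coverage that summit was the lowest of the diet, at 181 compared with 224 and 194, and the LFD-LSK summits reached 192, 215, and 120. Width was 745, 1523, and 1228 bp in HFD-LSK and 522, 1137, and 913 bp in LFD-LSK. The summits lay 243 ± 106 bp downstream of the start (SD, n = 6).

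**Figure D2:**
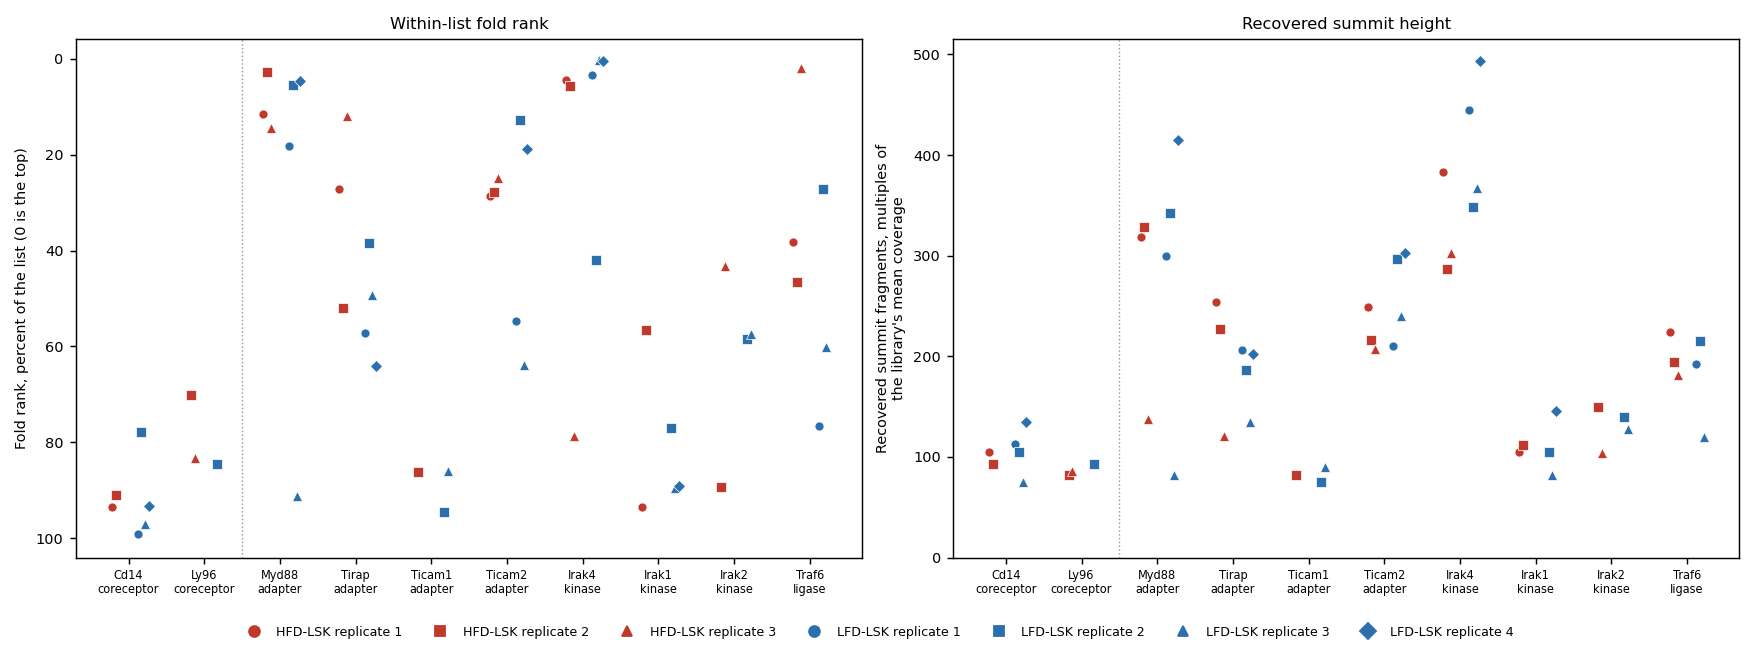
Left, fold rank of each gene's peak as a percent of its list (0 is the top); right, recovered fragments at the summit in multiples of the mean coverage of the library. Each point is 1 list (red, HFD-LSK; blue, LFD-LSK; symbols, replicates), uncalled lists have no point, and Irak4 spreads from 0.227% to 78.7% on the left but only from 287 to 494 on the right.

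Set side by side, the coreceptors stood below the middle of the cytosolic members in each list. Cd14 and Ly96 had 9 of 14 possible calls (64.3%), and the 8 cytosolic members had 46 of 56 (82.1%), or 44 (78.6%) without the calls of Myd88 in LFD-LSK replicates 1 and 4, where the only peak lay over Acaa1a. Over all protein-coding genes the share was 39.4%. By diet, the coreceptors had 4 of 6 calls in HFD-LSK and 5 of 8 in LFD-LSK, and the cytosolic members had 20 of 24 and 26 of 32. The contrast is a description of chosen genes and was not tested.
The median place of the called cytosolic members was 27.9%, 49.3%, and 19.7% of the list in HFD-LSK and 54.7%, 40.1%, 62.0%, and 18.9% in LFD-LSK. Leaving out Myd88, an alternative added after seeing the data because its taken peak mostly lay over Acaa1a, the medians were 28.7%, 52.0%, and 24.9% in HFD-LSK and 56.0%, 41.9%, 60.2%, and 41.5% in LFD-LSK. The highest coreceptor stood at 93.4%, 70.2%, and 83.2% in HFD-LSK and at 99.2%, 77.9%, 96.9%, and 93.2% in LFD-LSK. The roles were not cleanly divided, since Ticam1 and Irak2 in HFD-LSK replicate 2 and Ticam1 in LFD-LSK replicate 2 ranked below the highest coreceptor, and Irak1 stood at 89.1% in the median of its lists. Median width of the cytosolic peaks was 800, 1196.5, and 620.5 bp in HFD-LSK and 630, 952.5, 715, and 462 bp in LFD-LSK, and Cd14 was narrower than this median in 5 of its 6 lists. In height, the medians over called lists ran from 82.0 times the mean coverage at Ticam1, 86.3 at Ly96, 105 at both Cd14 and Irak1, and 133 at Irak2 to 193 at Traf6, 202 at Tirap, 240 at Ticam2, and 367 at Irak4, leaving out Myd88, whose tallest peaks lay over Acaa1a. Neighbors in this order overlapped in their ranges, and the ranges of Ly96 (82.0 to 92.9) and Irak4 (287 to 494) did not. The medians rest on different lists, whose own medians over called protein-coding genes ran from 155 to 247 times, so neighbors may be ordered otherwise within a list. Cd14 and Irak1 were equal in HFD-LSK replicate 1 and LFD-LSK replicate 2. Irak1 was higher in HFD-LSK replicate 2 (112 compared with 93.2) and LFD-LSK replicates 3 and 4 (82.5 and 146 compared with 75.0 and 135).

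None of the 4 members called in all 7 lists had fold ranks that separated the diets. Over all 4332 such genes, 1.27% ranked nearer the top in each HFD-LSK list than in each LFD-LSK list, and 4.39% ranked farther from it. As a percent of the list, the shares were 3.30% and 1.62%, which turns the balance between the directions, and none of the 4 members separated on that scale either. After adjustment, 0 genes passed an exact permutation test at 0.05 for fold rank or width rank (smallest adjusted p = 0.746 and 0.799), with 166 and 148 genes at an unadjusted p under 0.05. For the 4 members the percent scale gave differences of −20.3 for Myd88, −21.9 for Tirap, −10.4 for Ticam2, and 18.1 for Irak4 (two-sided exact permutation p = 0.743, 0.143, 0.486, and 0.457).
The protein-coding genes closest to a member in fold rank were sought among genes called in exactly the same lists. For Cd14, over 6 lists and 179 genes, these were Inpp5b, Magt1, and Rilpl1, with mean absolute differences of 1028, 1121, and 1129 ranks. For Irak1, over 5 lists and 67 genes, they were Amdhd1, Ccdc38, and Slc25a35 (448, 448, and 628 ranks). For the peak taken for Myd88, over 7 lists and 4331 genes, they were Nsun6, Arl5b, and Fen1 (520.0, 520.0, and 523 ranks).

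Tlr4, the receptor that Cd14 and Ly96 serve, was called in 3 of 3 HFD-LSK lists and in 0 of 4 LFD-LSK lists (Fisher's exact test, two-sided, p = 0.0286, adjusted p = 1). The study had already reported Tlr4 near the top of its increased peaks in HFD-LSK from these data, so this test is no independent support. The same calls were found for 0.3% of the protein-coding genes with at least 1 call. The median of its 3 summits was 138 times the mean coverage. In HFD-LSK replicates 2 and 3, which held both peaks, Tlr4 stood below Irak2 (138 and 86.3 times compared with 149 and 104). It also stood below Traf6 in each HFD-LSK list (164, 138, and 86.3 times compared with 224, 194, and 181). The lowest Tlr4 summit, 86.3, was as low as Ly96. The limits of LFD-LSK lay at 98.3, 58.1, 60.0, and 101 times, in part above that summit, and Tlr4 was called in 2 HFD-LSK lists with a common limit and in 1 with equal numbers of peaks (Fisher's exact test, two-sided, p = 0.143 and 0.429). Neither coreceptor followed this pattern: Cd14 was called in each LFD-LSK list and Ly96 in 1.
The other genes of the pathway were taken from lists by role. Of 12 Toll-like receptor genes, 1 was called in all 7 lists, 4 in some, and 7 in none, and of 7 surface and endosomal helpers, 1 in all, 2 in some, and 4 in none. Of 16 downstream kinases and ubiquitin enzymes, 9 were called in all 7 lists, 7 in some, and 0 in none, and the 8 inhibitors had 2, 5, and 1. Of all protein-coding genes, 20.2% were called in all 7 lists and 48.7% in none, and the groups were not tested against this share or against each other. With the lists as deposited, Tlr4, known beforehand from the study, was the only gene of these 43 whose calls separated the diets. Fold ranks separated the diets for 0 of the 13 called in all 7 lists.
Markers of LSK cells and of other lineages were checked in the same way from lists by cell type, of which not all genes are named here. Kit, Cd34, Mecom, Meis1, and Gata2 were called in all 7 lists, Flt3 in 6, and Hlf in 5, whereas Ly6a, which encodes the Sca1 used in the sort, and Slamf1 had 0 calls. The 4 B cell and 4 T cell markers had 0 calls, and of 6 myeloid markers only Lyz2 was called, in 1 LFD-LSK list. Among erythroid markers, Klf1 and Epor were called in 5 and 3 lists, and of the NK markers Nkg7 was called in 3.

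Promoter sequence was compared for the 7 members with an entry in the RefSeq table of 300-base windows (250 bases before to 50 after a transcript start, GRCm38.p6), which are Myd88, Tirap, Ticam1, Irak4, Irak1, Irak2, and Traf6. No entry was matched for Cd14, Ly96, and Ticam2. The number of CpG in the window was 22 for Tirap and Irak1, 19 for Traf6, 18 for Irak2, 16 for Irak4, 13 for Myd88, and 10 for Ticam1. Over 17492 promoters, the median was 13 CpG, with 4 for genes called in no list, 20 for those called in 1 to 6 lists, and 25 for those called in all 7. Ticam1, called in 3 lists, thus had the fewest CpG of the 7 members, but Irak1, also weak, had as many as Tirap. The motif GGGCGG, on either strand, was found in all 7 windows and in 46.3% of all promoters. Its share was 65.0% for genes called in 1 to 6 lists and 73.1% for those called in all 7. CCGGAAGT, GAGGAAGT, and TGACGTCA were found in none of the 7 (5.28%, 3.14%, and 2.33% of all promoters). Their shares were 8.44%, 2.76%, and 3.48% for genes called in 1 to 6 lists and 9.64%, 2.94%, and 3.42% for those called in all 7. TATAAA was found in Myd88 alone, at 2 overlapping places on opposite strands. It was in 13.3% of all promoters, and in 7.19% and 4.76% of those of genes called in 1 to 6 and in all 7 lists.
Promoters of 4 members are shown 5′ to 3′ on the strand of the gene, with each CpG in capitals. They are Irak4 at chr15:94543410-94543709 (plus strand), the member with the highest summits, Tirap at chr9:35199916-35200215 (minus strand), whose window is set by the transcript start 326 bp into the gene and ends before most of the summits, Myd88 at chr9:119339969-119340268 (minus strand), and Ticam1 at chr17:56276718-56277017 (minus strand), the promoter with the fewest CpG.
Irak4: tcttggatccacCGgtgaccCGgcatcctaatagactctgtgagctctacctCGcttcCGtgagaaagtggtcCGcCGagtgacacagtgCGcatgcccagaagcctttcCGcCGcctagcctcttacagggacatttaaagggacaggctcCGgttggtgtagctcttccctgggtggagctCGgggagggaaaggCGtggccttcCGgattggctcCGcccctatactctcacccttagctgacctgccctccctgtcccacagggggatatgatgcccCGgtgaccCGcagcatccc
Tirap: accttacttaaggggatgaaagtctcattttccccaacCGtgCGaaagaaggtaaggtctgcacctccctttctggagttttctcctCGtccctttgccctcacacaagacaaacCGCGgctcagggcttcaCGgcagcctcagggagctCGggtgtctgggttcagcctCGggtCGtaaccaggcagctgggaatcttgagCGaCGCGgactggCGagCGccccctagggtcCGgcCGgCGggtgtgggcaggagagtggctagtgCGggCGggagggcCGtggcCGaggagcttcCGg
Myd88: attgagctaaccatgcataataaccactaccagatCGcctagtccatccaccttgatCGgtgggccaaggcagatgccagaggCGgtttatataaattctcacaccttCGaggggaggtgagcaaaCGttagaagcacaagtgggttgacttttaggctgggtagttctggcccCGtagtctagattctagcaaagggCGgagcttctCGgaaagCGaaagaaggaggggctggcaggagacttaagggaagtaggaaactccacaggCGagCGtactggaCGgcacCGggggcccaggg
Ticam1: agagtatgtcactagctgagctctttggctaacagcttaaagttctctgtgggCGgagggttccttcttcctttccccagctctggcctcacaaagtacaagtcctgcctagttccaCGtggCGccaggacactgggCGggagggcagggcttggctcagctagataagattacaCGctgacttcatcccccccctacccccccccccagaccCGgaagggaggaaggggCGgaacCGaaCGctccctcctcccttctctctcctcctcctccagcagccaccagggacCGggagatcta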

How the data were processed

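H3K4me3 CUT&Tag peak lists of 7 LSK libraries were analyzed. The 7 IgG libraries were not read here, but the deposited folds and p-values may rest on them as controls. The authors' processing notes name Trim Galore, Bowtie2, Picard, MACS2, bedtools, HOMER, and featureCounts, with versions not given in the sources used here, and GRCm38. The study's methods name another caller and GRCm39, but the deposited files are MACS2 narrow peaks, called per library, that match gene starts of GRCm38. A peak carries the authors' fold enrichment (a ratio), the deposited −log10 p-value and −log10 q-value, and a deposited score equal to 10 times that −log10 p, which was at least 5.01.

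Gene bounds came from RefSeq (GRCm38.p6). Strands came from its promoter table for 17492 protein-coding genes and from GENCODE symbols for 3948, and 460 without a strand were left out. Summit fragments were recovered by inverting the fold (pseudocount of 1) and Poisson p of MACS2 within a relative error of 5e-05, and the mean coverage implied is relative to the genome size that MACS2 assumed. Calls were tested by Fisher's exact test over protein-coding genes with a call, and ranks by exact permutation over those called in all 7 lists, both two-sided, with Benjamini-Hochberg adjustment. Python 3.11.15, numpy 2.4.6, pandas 2.3.3, scipy 1.17.1, and matplotlib 3.10.9 were used. Only the recovery of fragments and the permutation test of ranks were tried on simulated data, the latter with counting error alone. The members and lists were chosen with earlier results of these data known. Named genes were the 10 members, Tlr4, pathway genes whose calls or ranks separated the diets (at most 4), genes starting within 1 kb of a member, and the 3 genes closest in rank to Cd14, Ly96, Myd88, and Irak1 where called in at least 4 lists. Acaa1a, 1010 bp from Myd88, and the cell type markers were named outside this rule, after their values were seen. Alternatives were windows of 500 bp and 3 kb, a −log10 q of at least 5, equal numbers of peaks, summits within 1 kb, other rank scales, the nearest peak, placed ranks, all genes, a replicate block, and leaving out each library. A common calling limit, leaving Myd88 out of the cytosolic median, and width as a percent of the list were chosen after seeing the data.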

Additional observations from a re-analysis of the deposited data

Results flagged for a closer look

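In LFD-LSK, 20 sets of 4 values (fold rank, width, width rank, and summit distance of the members called in all 4 lists) were searched for a list far from the rest, which chance gives in about 1 of 20 groups, and 3 were found. The fold rank of Myd88 was 9439 in LFD-LSK replicate 3, and its summit lay 235 bp downstream of the start there, since the peak over Acaa1a did not reach the window in that list. The fold rank of Irak4 was 4427.5 in LFD-LSK replicate 2, where the background under the fold was 1 and the summit held 60 fragments.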

How the results depend on the processing

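In 7 of 7 lists each called coreceptor ranked below the cytosolic median, also without counting Myd88. Under alternatives that lost coreceptor calls this rests on fewer lists, 5 of 5 with summits within 1 kb, 4 of 4 with a 500-bp window or the same calling limit, 3 of 3 with a −log10 q of at least 5, and 1 of 1 with equal numbers of peaks. Of 302 recomputed rank differences of single genes, 26 turned their sign, 10 of 130 for the members called in all 7 lists and 16 of 172 for the others, which lack a call in some lists. Among the latter, the fold rank difference ran from −714 to 1109 for Irak1, −882 to 5631 for Irak2, and −461 to 1037 for Ly96, and the width rank difference from −948 to 1663 for Irak1, −2012 to 2157 for Irak2, −790 to 1700 for Cd14, and −1333 to 317 for Traf6. The causes were not tested.

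Members called in every LFD-LSK list numbered 5, and 3 with a 500-bp window, with equal numbers of peaks, with summits within 1 kb, and with the same calling limit for all lists, an alternative added after seeing the data. The share of all protein-coding genes called in every LFD-LSK list is not given here, so these counts do not set the members apart from other genes. Members called in all 7 lists fell from 4 to 2 with equal numbers of peaks, which shortens 6 of the lists. Protein-coding genes called in all 7 lists fell from 4332 to 1941 with equal numbers of peaks, so the fall was not particular to the members. Rank differences were not computed where calls were lost, for Myd88 in these 4 settings, for Ly96 and Ticam1 with equal numbers of peaks and with the same calling limit, and for Cd14, Irak4, and Irak1 with equal numbers of peaks.

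The share of genes ranked nearer the top in each HFD-LSK list, 1.27%, was 0.830% with a −log10 q of at least 5, 1.94% by summit fragments, and 3.30% by percentile. The share farther from the top, 4.39%, was 2.78% with equal numbers of peaks and 1.62% by percentile. Genes called only in HFD-LSK rose from 0.3% to 0.624% with a −log10 q of at least 5, and those only in LFD-LSK from 0.0% to 0.230% with equal numbers of peaks (0.251% then only in HFD-LSK) and 0.00937% with summits within 1 kb. With 1 list left out, when fewer lists have to separate, these shares ran from 2.22% (without LFD-LSK replicate 3) to 6.12% (without HFD-LSK replicate 3) nearer and from 5.98% (without LFD-LSK replicate 4) to 13.6% (without HFD-LSK replicate 1) farther. Calls only in HFD-LSK ran from 0.322% (without HFD-LSK replicate 2) to 2.88% (without HFD-LSK replicate 1), and calls only in LFD-LSK from 0.0% to 0.218% (without HFD-LSK replicate 2).

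The fold rank difference of Ticam2, −243, turned to 883 by summit fragments and ran from −918.0 to 848 with 1 list left out, turning to 3.67 and 848 without LFD-LSK replicates 1 and 3. That of Myd88 ran from −2742 to 298, turning without LFD-LSK replicate 3, that of Tirap from −2504 to 188, turning without HFD-LSK replicate 3, and that of Irak4 from −606 to 3901, turning without HFD-LSK replicate 3. The width rank difference of Myd88, −199, was 401 for the peak nearest to the start and ran from −2381 to 1341, turning to 444, 1341, and 271 without HFD-LSK replicates 1 and 2 and LFD-LSK replicate 3.

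With the replicate number as a replicate block (3 pairs, smallest p possible 0.25), the fold rank differences were −2742 for Myd88, −896.5 for Tirap, −918.0 for Ticam2, and 1957.5 for Irak4. Lists with the same number correlated at 0.107, −0.0227, and 0.0263 and other pairs of lists at −0.147 to 0.0857, which does not settle whether the numbers mark shared origin. The summits of Cd14, Ly96, Ticam1, and Irak1 held 10 to 30 fragments, and the part of depth in their calls was not tested.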
